A study of Arabidopsis thaliana with 6 samples.

Results

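This account follows 10 Arabidopsis thaliana genes whose proteins work beside the heat shock chaperones HSP70 and HSP90 or in the heat response: the HSP90 cochaperones HOP1, HOP2, HOP3, ROF1 and ROF2, the J-domain proteins ATJ2, ATJ3 and AT1G71000, the HSP70-binding protein BAG6 and the transcriptional coactivator MBF1C. They were picked by name and locus, with earlier results of these data known, and all 10 are among the 33602 genes of the deposited count table. All 10 passed the filter on low counts that left 18504 genes for testing. AT1G71000, with 4, 5 and 0 counts in high CO2, passed it only through the high light libraries. Leaf mRNA of the catalase mutant cat2-2 (Columbia-0 background) was sequenced in 2 groups of 3 libraries. Plants of both groups carried the mutation and were raised to an age of 3 weeks at 3000 ppm CO2 and 120 µmol m-2 s-1 light, with 75% relative humidity and 21 °C. The high light group was then moved to a different chamber with ambient air (400 ppm CO2, 55% relative humidity, 21 °C) and 1200 µmol m-2 s-1 light, and was taken after 3 h. The high CO2 group was taken at 0 h under the growth conditions. A library holds RNA of middle-aged leaves pooled from 15 plants, and the labels call the 3 libraries of a group biological repeats. No wild type is analysed here, and CO2, light, humidity, chamber and time of sampling all differ between the groups, so their effects cannot be told apart.

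J-domain proteins hand unfolded clients to HSP70 and stimulate its ATPase. HOP proteins hold HSP70 and HSP90 together through tetratricopeptide (TPR) repeats so that clients can pass on, and the FKBP-type immunophilins ROF1 and ROF2 dock on HSP90 in the same way. BAG proteins bind the ATPase domain of HSP70 and act in nucleotide exchange, and MBF1C is a nuclear coactivator needed for thermotolerance in Arabidopsis. Most of these genes are known for their induction by heat, through heat shock factors that bind heat shock elements, which are inverted repeats of the unit GAA.

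The 250 bases before 5 of the genes are shown. The gene with the largest rise (AT1G71000) is set beside 2 risen genes with a shorter element match (BAG6 and ATJ2). With them are a strongly risen gene with no match in its window (HOP3) and the gene that did not pass the test (HOP1). The windows were read from the TAIR10.1 genome at the gene starts of its RefSeq annotation, whose nuclear loci were matched by locus identifier. Capitals mark heat shock element matches. The positions are chr1:26770178-26770427, minus strand, for AT1G71000, chr2:18985883-18986132, plus strand, for BAG6, chr5:7305871-7306120, minus strand, for ATJ2, chr4:7341364-7341613, minus strand, for HOP3 and chr1:4171785-4172034, plus strand, for HOP1.
AT1G71000: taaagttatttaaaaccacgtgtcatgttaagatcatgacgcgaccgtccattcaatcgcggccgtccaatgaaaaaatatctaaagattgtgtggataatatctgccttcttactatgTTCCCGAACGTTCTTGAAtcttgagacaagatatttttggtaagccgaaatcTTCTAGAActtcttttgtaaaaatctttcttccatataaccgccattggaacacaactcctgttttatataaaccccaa
BAG6: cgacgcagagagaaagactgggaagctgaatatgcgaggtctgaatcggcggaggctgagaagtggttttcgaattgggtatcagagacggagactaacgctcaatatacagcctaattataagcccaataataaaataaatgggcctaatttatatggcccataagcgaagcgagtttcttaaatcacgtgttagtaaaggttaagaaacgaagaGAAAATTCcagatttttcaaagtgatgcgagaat
ATJ2: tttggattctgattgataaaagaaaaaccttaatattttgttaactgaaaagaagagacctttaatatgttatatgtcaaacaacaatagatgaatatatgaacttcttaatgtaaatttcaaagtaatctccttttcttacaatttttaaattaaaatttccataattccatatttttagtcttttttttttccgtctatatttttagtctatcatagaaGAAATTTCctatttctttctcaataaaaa
HOP3: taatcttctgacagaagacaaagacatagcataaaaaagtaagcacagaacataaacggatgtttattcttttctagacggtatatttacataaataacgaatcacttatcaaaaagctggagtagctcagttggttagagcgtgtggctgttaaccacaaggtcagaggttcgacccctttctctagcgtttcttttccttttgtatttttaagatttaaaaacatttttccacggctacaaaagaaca
HOP1: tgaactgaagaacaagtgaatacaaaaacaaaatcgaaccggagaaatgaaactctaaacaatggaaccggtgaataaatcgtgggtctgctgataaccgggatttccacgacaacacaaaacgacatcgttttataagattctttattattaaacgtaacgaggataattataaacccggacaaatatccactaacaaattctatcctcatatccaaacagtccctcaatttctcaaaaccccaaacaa

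Both strands were searched for 3 units, written GAANNTTCNNGAA or, as its reverse complement, TTCNNGAANNTTC, and for the 2-unit cores GAANNTTC or TTCNNGAA, which read the same on both strands and also lie within the 3-unit pattern. AT1G71000 was the 1 gene of the 10 with a 3-unit match, in a run of bases 131 to 114 before its start in which 2 such matches overlap, and it held a further 2-unit match at bases 79 to 72. Of 27438 promoters of protein-coding genes of the same length, 0.386% held a 3-unit match. BAG6 (bases 34 to 27) and ATJ2 (bases 29 to 22) had a single 2-unit match each, so that 3 of 10 genes had one, against 16.2% of all promoters. HOP1, HOP2, HOP3, ROF1, ROF2, ATJ3 and MBF1C had no match in this window, which says only that these letters are not there. For every gene the start used is the most upstream base of its annotation, and MBF1C also has an annotated start further downstream. HOP3 has 2723 annotated exon bases for 1677 coding bases, so its window need not lie before the start in use. Which start was in use in these leaves was not tested for any of the genes.

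**Figure D1:**
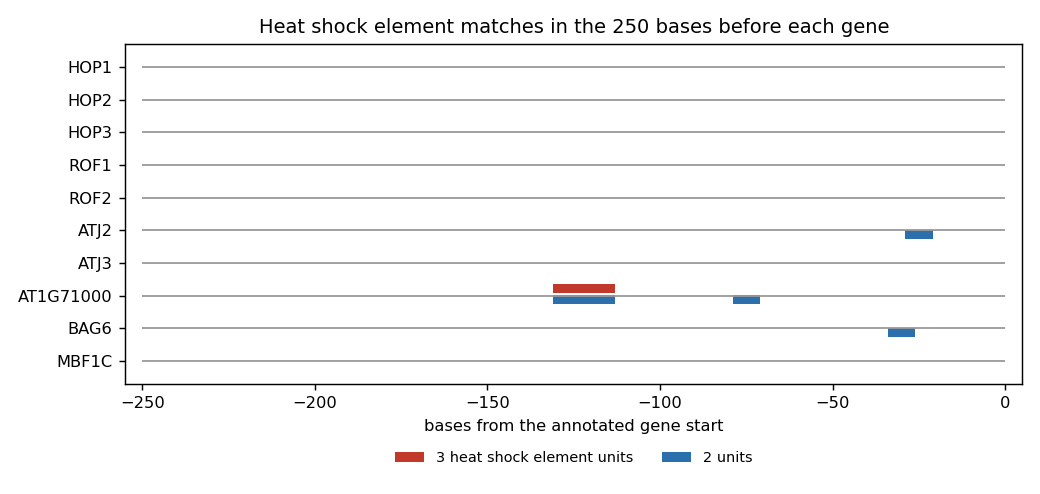
Matches to 3 (red) and 2 (blue) heat shock element units in the 250 bases before the annotated start of each gene, with the distance in bases on the x axis. AT1G71000 holds the 2 overlapping 3-unit matches, BAG6 and ATJ2 hold a 2-unit match close to the start, and the other 7 lines are empty.

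Setting high light against high CO2 asks how leaf transcripts follow the whole move. It took plants out of air that holds photorespiration low, into stronger light, lower humidity and another chamber, 3 h before sampling. Of the 10 genes, 9 rose in high light, 0 fell and HOP1 was not called (called at a Benjamini-Hochberg adjusted p under 0.05, computed by edgeR's quasi-likelihood method over all 18504 tested genes). Calls were common in these libraries: of all tested genes 60.8% were called in either direction, 30.4% higher and 30.4% lower. The 9 of 10 genes called higher are to be read against 30.4%. The genes were chosen with earlier results of these data known. This comparison and those that follow here therefore describe the set and are no test of it. AT1G71000, which passed the filter only through the high light libraries, is among the 9. Of the 10, 8 were called with a log2 fold change of at least 2, against 9.92% of tested genes. The libraries of the groups lay apart without overlap for 9 of the 10 genes and for 67.2% of tested genes. The median log2 fold change was 4.59 over the 10 genes and -0.06 over all tested genes, and the members ranged between -0.06 and 10.53. Levels are given in CPM (counts scaled to a common library size with TMM factors) as mean ± SD over 3 libraries, and log2 fold changes, always high light over high CO2, with the standard error of the fit. These are levels in bulk leaf RNA, in which a change in the RNA per cell and a change in the mix of cells cannot be told apart.

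**Figure D2:**
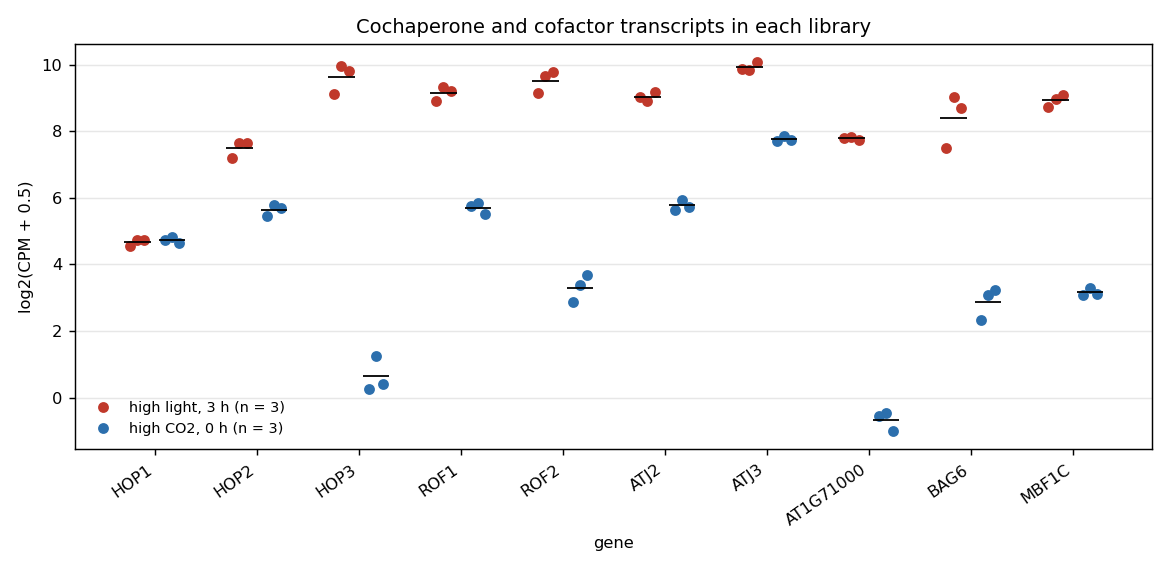
Level of each gene in each of the 3 high light (red) and 3 high CO2 (blue) libraries as log2(CPM + 0.5), with bars at the mean. The groups are apart for 9 genes and overlap for HOP1. AT1G71000 and HOP3 start lowest in high CO2, and BAG6 spreads most within high light.

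The 3 HOP genes, which bridge HSP70 and HSP90, moved differently. HOP3 (AT4G12400) had 555, 984 and 894 CPM in the high light libraries, against 0.709, 1.87 and 0.833 CPM in high CO2. It was nearly silent in every high CO2 library, with 15, 42 and 16 counts, and its mean rose to 811 ± 226 CPM in high light, against 1.14 ± 0.636 CPM in high CO2 (log2 fold change 9.45 ± 0.44, edgeR adjusted p = 6.74e-07). Without high CO2 replicate 2, which held 42 of these counts, the log2 fold change was 10.06. HOP2 (AT1G62740) stood at 146, 201 and 199.6 CPM in high light and at 43.3, 54.6 and 51.1 CPM in high CO2. Every high light library was above every high CO2 library (log2 fold change 1.88 ± 0.17, edgeR adjusted p = 2.77e-05). HOP2 shares 5.55% of its exon bases with SCO1 on the opposite strand. SCO1 was counted at 245 ± 17.8 CPM in high light and 879 ± 83.5 CPM in high CO2. HOP3 shares 5.99% with PME1, at 6.60 ± 1.02 CPM in high light and 22.5 ± 6.85 CPM in high CO2. The labels do not say whether strand was used in counting. HOP1 (AT1G12270) had 23.2, 26.3 and 26.0 CPM in high light and 26.1, 27.6 and 24.7 CPM in high CO2. Its groups overlapped and the difference was within their spread (log2 fold change -0.06 ± 0.12, edgeR adjusted p = 0.685, in a range of 0.0315 to 0.997 over its alternatives). With upper-quartile scaling, which shifted the median over all tested genes by -0.27 (log2), HOP1 had -0.33 and was called lower (edgeR adjusted p = 0.0315), and without high CO2 replicate 2 it had 0.015.

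Per length, these differences changed the make-up of the HOP family. Levels per length are RPKM, CPM per kilobase of annotated exon. HOP3 made up 70.4%, 75.8% and 74.2% of the family's summed RPKM in the high light libraries, against 0.733%, 1.62% and 0.788% in high CO2. Its share was higher by 72.4 percentage points in high light, in 3 of 3 libraries, with an exact permutation p = 0.1 (two-sided). No smaller p is possible with 3 libraries a group. In high CO2 HOP2 and HOP1 were the family's main transcripts, at 25.0 ± 2.93 and 13.5 ± 0.739 RPKM, beside 0.417 ± 0.234 RPKM for HOP3. In high light HOP3 reached 298 ± 83.1 RPKM, HOP2 92.0 ± 15.8 RPKM and HOP1 12.9 ± 0.888 RPKM. The family sum was 403 ± 99.5 RPKM in high light and 38.9 ± 3.45 RPKM in high CO2, a ratio of 10.3.

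ROF1 and ROF2, peptidyl-prolyl isomerases of the FKBP type, both rose. ROF1 is known to bind HSP90.1 and to enter the nucleus with it and the factor HSFA2 after heat, and ROF2, its closest paralog, is known as heat-inducible. ROF2 (AT5G48570) had 567, 799 and 875 CPM in high light, against 6.76, 9.83 and 12.2 CPM in high CO2 (log2 fold change 6.28 ± 0.30, edgeR adjusted p = 7.36e-07). ROF1 (AT3G25230) had 484, 642 and 595 CPM in high light, against 53.0, 56.6 and 45.1 CPM in high CO2 (log2 fold change 3.47 ± 0.18, edgeR adjusted p = 1.01e-06). Both were far apart between the groups, and per length ROF2 was below ROF1 in each high CO2 library and above it in each high light library. Of the pair's summed RPKM, ROF2 held 55.0%, 56.5% and 60.6% in high light and 11.8%, 15.4% and 22.1% in high CO2. That is 41.0 percentage points more in high light (exact permutation p = 0.1, two-sided, the smallest possible, higher in 3 of 3 libraries). The pair's sum was 586 ± 104 RPKM in high light and 26.7 ± 2.01 RPKM in high CO2, a ratio of 21.98.

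The J-domain genes gave the largest and one of the smallest rises. AT1G71000, a short J-domain protein with no common name in the annotation, had 4815, 5200 and 4625 counts in high light, against 4, 5 and 0 counts in high CO2. In CPM these were 223, 225 and 213 against 0.189, 0.222 and 0. Its high light libraries were the closest together of the 10 genes, the highest being 1.06 times the lowest (log2 fold change 10.53 ± 0.37, edgeR adjusted p = 2.48e-07). With 9 counts in all of high CO2 the fold rests on few reads, and the log2 fold change was 10.08 without high CO2 replicate 3 and 11.07 without high CO2 replicate 2.

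ATJ2 and ATJ3 are close cytosolic homologues of the yeast J-protein Ydj1 and carry a farnesyl anchor. ATJ3 (AT3G44110) stood at 928, 913 and 1071 CPM in high light and at 208, 229 and 214 CPM in high CO2 (log2 fold change 2.16 ± 0.14, edgeR adjusted p = 4.39e-06). ATJ2 (AT5G22060) stood at 527, 476 and 578 CPM in high light and at 49.4, 61.0 and 52.7 CPM in high CO2 (log2 fold change 3.28 ± 0.16, edgeR adjusted p = 8.24e-07). Per length, ATJ3 was the more abundant of the pair in every library of both groups. Its share of the pair's RPKM was 61.4%, 63.4% and 62.6% in high light and 79.1%, 77.2% and 78.5% in high CO2, lower by 15.9 percentage points in high light in 3 of 3 libraries (difference -15.9, exact permutation p = 0.1, two-sided, the smallest possible). ATJ2 shares 21.2% of its exon bases with AT5G22050 on the opposite strand. Whether the counting used strand is not stated in the labels, and AT5G22050 had 10.6 ± 0.995 CPM in high light and 17.2 ± 1.86 CPM in high CO2.

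**Figure D3:**
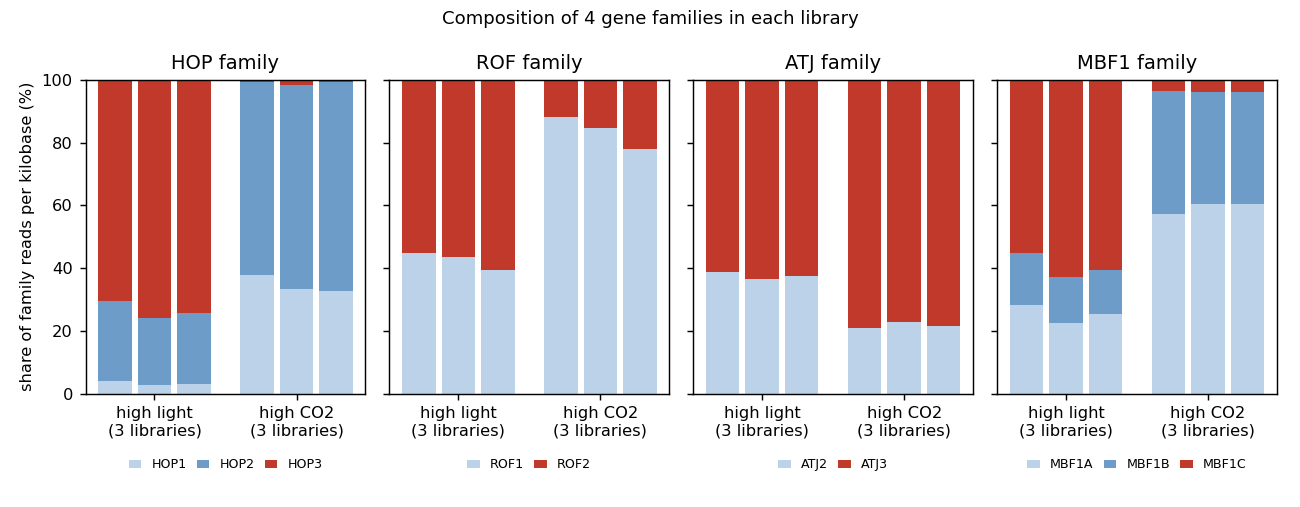
Share of each gene in the summed reads per kilobase of its family (y axis, %), with 1 bar for each high light library on the left of each panel and 1 for each high CO2 library on the right. HOP3, ROF2 and MBF1C (red) take 73.5%, 57.4% and 59.5% on average in high light, against 1.05%, 16.4% and 3.76% in high CO2, and ATJ3 (red) takes 62.5% against 78.3%.

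BAG6 (AT2G46240), a calmodulin-binding BAG protein known from Arabidopsis heat and defence responses, had 181, 519.7 and 415 CPM in high light, against 4.49, 7.91 and 8.91 CPM in high CO2. The groups were far apart (log2 fold change 5.71 ± 0.46, edgeR adjusted p = 1.28e-05), yet the highest high light library was 2.86 times the lowest, and 2.90% of tested genes had a larger ratio. Without high light replicate 1, the low library, the log2 fold change of BAG6 was 6.04. MBF1C (AT3G24500) had 424, 499.9 and 545 CPM in high light, against 7.89, 9.29 and 8.18 CPM in high CO2, with no overlap and a highest to lowest ratio of 1.29 in high light, that of the median tested gene (log2 fold change 5.85 ± 0.18, edgeR adjusted p = 2.21e-07). MBF1C shares 25.9% of its exon bases with genes on the opposite strand. Among these ALDH2C4 was counted at 329 ± 98.9 CPM in high light and 131 ± 5.82 CPM in high CO2, and MSH7 at 2.80 ± 0.465 CPM in high light and 4.30 ± 0.994 CPM in high CO2.

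MBF1C belongs to a family of 3 coactivators, whose other members are known as constitutive. MBF1A had 133 ± 16.3 CPM in high light and 85.7 ± 8.31 CPM in high CO2, and MBF1B 92.2 ± 3.78 CPM in high light and 61.8 ± 6.17 CPM in high CO2. Both rose slightly (log2 fold changes 0.64 ± 0.14 for MBF1A and 0.58 ± 0.12 for MBF1B, with adjusted p = 0.00464 and 0.0037 from edgeR). With upper-quartile scaling MBF1B was not called (log2 fold change 0.31, edgeR adjusted p = 0.0524). MBF1C held 55.2%, 62.7% and 60.6% of the family's RPKM in high light and 3.52%, 3.79% and 3.97% in high CO2, a difference of 55.7 percentage points (exact permutation p = 0.1, two-sided, the smallest possible, higher in 3 of 3 libraries).

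In high light the order of the 10 genes by mean RPKM was ATJ3 (499 ± 44.8), MBF1C (406 ± 50.7), ROF2 (338 ± 72.5), ATJ2 (300.4 ± 29.0), HOP3 (298 ± 83.1), ROF1 (248 ± 35.02), AT1G71000 (184 ± 5.63), BAG6 (98.4 ± 45.8), HOP2 (92.0 ± 15.8) and HOP1 (12.9 ± 0.888). Neighbours in this order had overlapping libraries between MBF1C and ROF1, and again for BAG6 and HOP2, so those orders are not settled. In high CO2 the order was ATJ3 (112 ± 5.67), ATJ2 (31.0 ± 3.40), HOP2 (25.0 ± 2.93), ROF1 (22.3 ± 2.54), HOP1 (13.5 ± 0.739), MBF1C (7.01 ± 0.613), ROF2 (4.35 ± 1.24), BAG6 (1.88 ± 0.612), HOP3 (0.417 ± 0.234) and AT1G71000 (0.115 ± 0.1004), and HOP2 and ROF1 were the one pair of neighbours whose libraries overlapped. The 5 genes lowest in high CO2 were the 5 with the largest log2 fold changes, which share the high CO2 level as their denominator. HOP1 was the last of the 10 in high light and the fifth in high CO2, with its own RPKM differing by less than the spread.

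**Figure D4:**
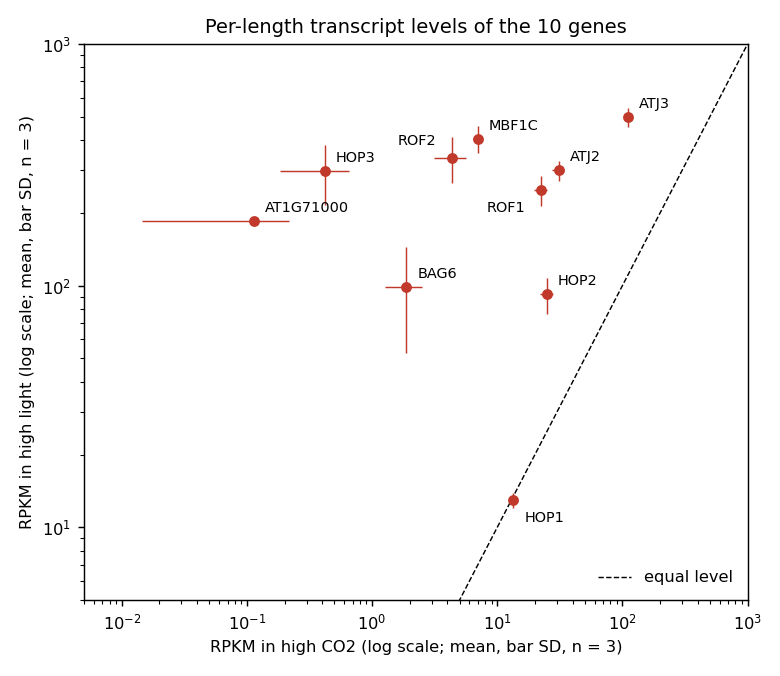
Mean RPKM of each gene in high light (y axis, log scale) against high CO2 (x axis, log scale), with bars of 1 SD over 3 libraries. HOP1 lies on the dashed line of equal level, the other 9 genes lie above it, and the high CO2 means range from 0.115 to 112 RPKM while those of the 9 risen genes in high light range from 92.0 to 499 RPKM.

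The high light libraries differed among themselves. For 7 of the 10 genes (HOP1, HOP2, HOP3, ROF1, ROF2, BAG6 and MBF1C) replicate 1 was the lowest high light library, as it was for 34.7% of all tested genes. The ratio of the highest to the lowest high light library was 1.77 for HOP3 and 1.54 for ROF2, against 1.29 for the median tested gene, and it was 1.21 for ATJ2 and 1.17 for ATJ3. BAG6, HOP3 and ROF2 thus spread most, and AT1G71000, HOP1, ATJ3 and ATJ2 least.

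Related genes were counted next, from lists made by role, with earlier results of these data known. The counts of these and the following lists are to be read against all tested genes. Of those, 60.8% were called, 30.4% higher and 30.4% lower. Of 11 other HSP90 and TPR cochaperones 5 rose, 2 fell and 4 were not called (median log2 fold change 0.07). AT3G12050, of the Aha1 type that activates the HSP90 ATPase, rose to 258 ± 6.67 CPM in high light, against 34.7 ± 2.34 CPM in high CO2. SGT1A, an HSP90 partner in immune receptor assembly, rose to 288 ± 16.6 CPM in high light, against 41.8 ± 3.83 CPM in high CO2 (edgeR adjusted p = 6e-07 for AT3G12050 and 9.92e-07 for SGT1A). Its paralog SGT1B was also called, with a smaller fold (159 ± 9.96 CPM in high light, 108 ± 11.2 CPM in high CO2, log2 fold change 0.56 ± 0.13, edgeR adjusted p = 0.00642). CHIP, a ubiquitin ligase that docks on chaperones, rose by 1.62 ± 0.15 on the log2 scale (adjusted p = 3.1e-05 from edgeR) and RAR1, a partner of SGT1, by 0.56 ± 0.15 (adjusted p = 0.0103). The cyclophilin-40 gene SQN fell to 5.46 ± 0.588 CPM in high light, against 11.1 ± 0.813 CPM in high CO2 (log2 fold change -1.03 ± 0.15, edgeR adjusted p = 0.000393). TPR-bearing FKBP genes besides the ROFs, TWD1 and PAS1, were not called, at -0.02 ± 0.14 (adjusted p = 0.927 from edgeR) and -0.28 ± 0.19 (adjusted p = 0.234) on the log2 scale. With upper-quartile scaling this list had 3 risen and 4 fallen members, as SGT1B and RAR1 were not called and PAS1 and the p23-like AT4G02450 were called lower. The other gene that fell, the p23-like AT3G03773 (log2 fold change -0.49, edgeR adjusted p = 0.0210), was not called in 5 of 14 alternatives (DESeq2, and without replicate 1 or 2 of high light or of high CO2), which left 1 fallen member in each of them.

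Of 6 HSP70 exchange and holding cofactors 5 rose and FES1C was not called, and the median over the 6 was 0.85 (log2 fold change). FES1A, a nucleotide exchange factor known to protect cytosolic HSP70s in heat, rose to 1859 ± 204 CPM in high light, against 12.5 ± 2.59 CPM in high CO2 (log2 fold change 7.22 ± 0.24, edgeR adjusted p = 2.27e-07). Its paralogs FES1B and FES1C stood at 0.65 ± 0.19 (adjusted p = 0.0174 from edgeR) and -0.14 ± 0.18 (adjusted p = 0.523) on the log2 scale, and 41.0% of the FES1C exon bases overlap genes of the other strand. The HSP110-type genes HSP70-14 and HSP70-15 rose by 1.04 and 1.96 on the log2 scale, but their coding sequences are 95.8% identical, so their separate values are uncertain. With upper-quartile scaling 3 of the 6 rose, FES1B and HIP1 being lost, and without high light replicate 2 FES1B was not called.

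Among 21 other J-domain genes 19 could be tested, of which 9 rose, 6 fell and 4 were not called (median log2 fold change 0.40). AT2G20560, of the cytosolic type, rose to 433 ± 55.8 CPM in high light, against 6.82 ± 1.25 CPM in high CO2 (log2 fold change 5.99 ± 0.22, edgeR adjusted p = 2.65e-07). AT1G56300, the closest relative of AT1G71000 by coding sequence, rose to 110 ± 9.54 CPM in high light, against 3.805 ± 0.762 CPM in high CO2 (log2 fold change 4.85 ± 0.18, edgeR adjusted p = 2.89e-07), though 41.5% of its exon bases are shared with a gene on the opposite strand. The alignment between these relatives covered 42.8% of the AT1G71000 coding sequence at 69.2% identity. The plastid genes DJA5 and DJA6 fell, to 28.01 ± 2.82 and 35.1 ± 1.27 CPM in high light, against 78.2 ± 12.2 and 66.8 ± 11.4 CPM in high CO2 (edgeR adjusted p = 5.89e-05 and 0.000673), and 19.0% of the exon bases of DJA5 are shared with the opposite strand. DJA4, of the plastid type, and AT1G10350 also fell (log2 fold changes -1.10 and -0.39, with adjusted p = 0.0299 and 0.0443 from edgeR), and neither was called without high light replicate 2 or 3 or with replicate 1 or 2 of high CO2 left out, which left 4 fallen members. AT1G10350 lost its call in 10 of 14 alternatives in all, and the rise of GFA2 (log2 fold change 0.40, edgeR adjusted p = 0.0329) in 4 of 14. With upper-quartile scaling 8 of the list rose and 7 fell.

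The other BAG genes moved in both directions, as did tested genes as a whole (30.4% called higher and 30.4% lower). Of 6 members 1 rose, 3 fell and 2 were not called (median log2 fold change -0.36). BAG5 rose to 20.7 ± 2.35 CPM in high light, against 8.30 ± 0.806 CPM in high CO2 (log2 fold change 1.32 ± 0.14, edgeR adjusted p = 7.93e-05). BAG1, BAG2 and BAG4 stood at -0.92 ± 0.14, -1.71 ± 0.22 and -0.47 ± 0.13 on the log2 scale (adjusted p = 0.000591, 0.000216 and 0.0147 from edgeR). BAG3 and BAG7 were not called, at 0.08 ± 0.12 and -0.26 ± 0.11 (adjusted p = 0.583 and 0.0803 from edgeR). BAG4 was not called without high light replicate 2 or without high CO2 replicate 2, which left 2 fallen members, and with upper-quartile scaling BAG7 was called lower as well, which made 4.

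**Figure D5:**
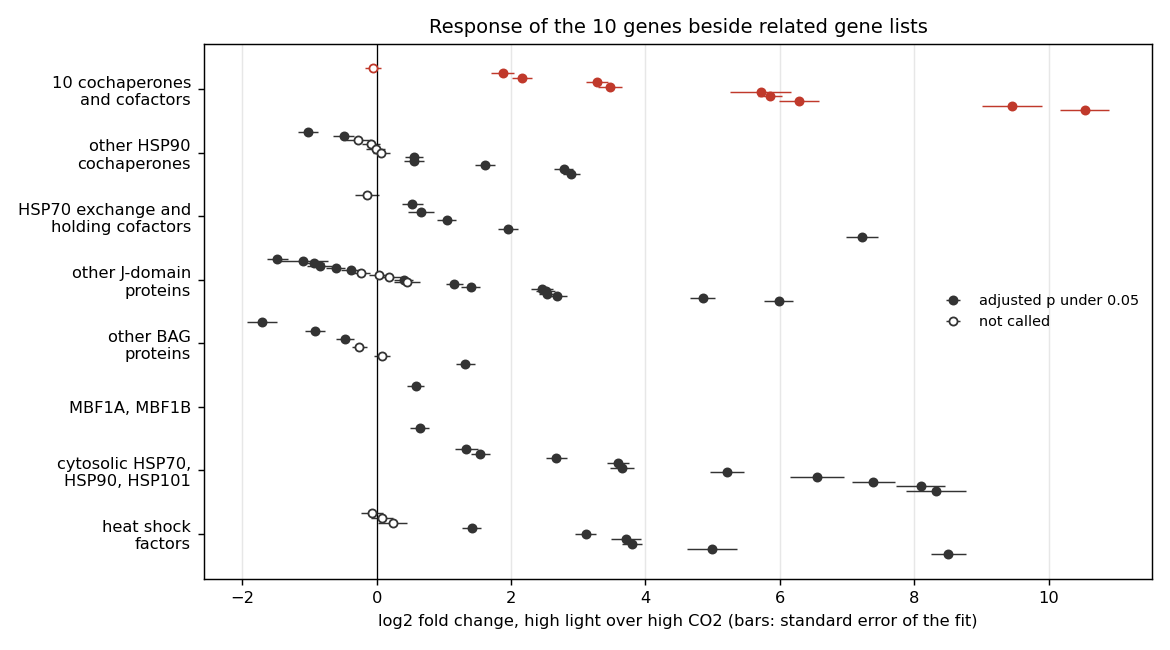
Log2 fold change of each gene, high light over high CO2 (x axis), with the standard error of the fit, in the 10 genes (red) and 7 related lists (black). Filled points were called at an adjusted p under 0.05. The 10 genes reach 10.53 and 9 of them lie right of 0, with HOP1 at -0.06. The lists of other HSP90 cochaperones, HSP70 cofactors, J-domain proteins, BAG proteins and heat shock factors also have members on both sides of 0.

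All 10 genes of the cytosolic chaperones listed as their partners rose (median 4.43 on the log2 scale). HSP90.1 rose to 3493 ± 712 CPM in high light, against 10.9 ± 4.80 CPM in high CO2, and HSP101 to 1459 ± 399 CPM in high light, against 8.68 ± 2.03 CPM in high CO2 (edgeR adjusted p = 1.25e-06 and 4.77e-07). Of 11 heat shock factor genes 9 could be tested, of which 6 rose and 0 fell. HSFA2, which sustains the heat response, rose to 342 ± 51.7 CPM in high light, against 0.928 ± 0.275 CPM in high CO2, a log2 fold change of 8.51 ± 0.26 (edgeR adjusted p = 2.21e-07). The class B factors HSFB2A and HSFB2B rose by 3.798 and 3.11 on the log2 scale (adjusted p = 3.55e-07 and 1.01e-06 from edgeR). Of the HSFA1 class, known to act first in heat, HSFA1D rose to 16.6 ± 1.08 CPM in high light, against 6.24 ± 0.820 CPM in high CO2 (log2 fold change 1.41 ± 0.15, edgeR adjusted p = 5.96e-05). HSFA1A, HSFA1B and HSFA1E were not called, at 0.08 ± 0.16, 0.24 ± 0.21 and -0.07 ± 0.17 on the log2 scale (adjusted p = 0.692, 0.361 and 0.718 from edgeR). HSFA1B was called higher without high CO2 replicate 3 and without replicate 3 of both groups, and its log2 fold change lay between -0.03 and 0.61 over 14 alternatives. HSFB2B shares 22.4% of its exon bases with genes on the opposite strand.

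Cochaperone transcripts were then set against those of their chaperones, as the ratio of summed RPKM in each library, a comparison chosen with the gene values known. HOP1 to HOP3 per cytosolic HSP90.1 to HSP90.4 stood at 0.107, 0.155 and 0.123 in high light and at 0.206, 0.232 and 0.254 in high CO2. By exon length this ratio was lower in all 3 high light libraries, as the HOP sum rose 10.3-fold and the HSP90 sum 18.5-fold. HOP3 has 2723 exon and 1677 coding bases, while HSP90.1 has 2103 exon and 2103 coding bases. The HOP ratio therefore depends on the length used, and the gap between the groups is shown for exon length only. Other lengths were not tried for any of the 3 ratios given here. ROF1 and ROF2 per cytosolic HSP90 stood at 0.172, 0.207 and 0.182 in high light and at 0.151, 0.158 and 0.164 in high CO2, slightly higher in high light with no overlap. ATJ2 and ATJ3 per cytosolic HSP70 stood at 0.195, 0.181 and 0.180 in high light and at 0.209, 0.229 and 0.245 in high CO2, lower in high light with no overlap. Each of the 3 ratios had an exact permutation p = 0.1 (two-sided, and 0.1 again after adjustment over the 3), and no smaller p was possible. HSP90.2, HSP90.3 and HSP90.4 have copies among each other of at least 95% coding identity, so their separate values are uncertain, while 0 of the 10 cochaperone and cofactor genes have such a copy.

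For each risen gene the nearest profiles among all other tested genes were sought by the root mean square difference of log2(CPM + 0.5), centred on the high CO2 mean, over the 6 libraries. The 3 nearest of each are given in order of the difference. HOP3 lay nearest to HSP23.6-MITO, a mitochondrial small heat shock protein gene with a log2 fold change of 10.32, then to PMZ and CYP81D11 (0.215 to 0.374). HOP2 lay nearest to CDF2, ASG1 and RLP24 (0.0702 to 0.0779). ROF1 lay nearest to BIK1, a kinase gene of immune signalling, then to AT1G55530 and WRKY45 (0.126 to 0.140). The nearest to ROF2 were UGT73B2, a stress-related glycosyltransferase gene, WRKY33 and AT1G28190 (0.218 to 0.254). AT1G71000 lay nearest to CYP81D11, a cytochrome P450 gene with a log2 fold change of 9.92, then to AT4G39670 and AT2G29500 (0.260 to 0.316). For ATJ2 they were LYM2, AT3G23605 and SGP2 (0.0913 to 0.0972), and for ATJ3 AT4G35110, AT3G22260 and GFAT (0.0333 to 0.0484). BAG6 lay nearest to AT1G51890, then to ATERDJ3A, a J-domain protein gene of the endoplasmic reticulum, and SRO3 (0.256 to 0.385). MBF1C lay nearest to UGT73B3, OPR1 and AT5G46080 (0.109 to 0.121). The added 0.5 CPM understates the change of low genes, so near profiles can belong to genes with unlike fitted fold changes, as for BAG6 (5.71) and its nearest gene AT1G51890 (6.85).

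The mutated gene CAT2, encoding the main leaf catalase, was still counted in every library, at 40.0 ± 5.65 CPM in high light and 94.1 ± 12.6 CPM in high CO2. Library totals ranged from 18047295 to 24149149 counts. Leaf mesophyll markers were abundant in both groups, their 5 genes summing to 24620 to 35220 CPM in high light and 53591 to 77442 CPM in high CO2, and 5 of 5 fell. Root markers summed to 0.0867 to 0.601 CPM in high light and 0 to 0.0473 CPM in high CO2, with COBL9, RHD6 and PYK10 at 0 in all 6 libraries. Flower markers summed to at most 0.689 CPM in high light and 1.67 CPM in high CO2. Vascular markers summed to 159 to 203 CPM in high light and 242 to 259 CPM in high CO2, and 4 of 5 fell. Epidermis markers summed to 46.7 to 53.4 CPM in high light and 104 to 113 CPM in high CO2, and 2 of 2 fell. Of 4 guard cell markers 1 rose and 2 fell. Their sums overlapped, at 40.0 to 55.2 CPM in high light and 47.0 to 48.7 CPM in high CO2. These counts stand beside 30.4% of all tested genes called higher and 30.4% called lower. The part of the markers in the results was not tested.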

How the data were processed

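Leaf RNA (TRIzol plus RNeasy, per the labels' protocols) went into TruSeq Stranded mRNA libraries. Per the submitters' processing notes, Trim Galore 0.3.3, TopHat2 2.1.0 (TAIR10) and featureCounts of Subread 1.4.6 were used. The handling of strand and of reads at several loci is not given in the sources used here. What the authors deposited is 1 table of raw read counts, unscaled, with a line for each gene; 2 leftover header lines in it were dropped.

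Genes were kept by filterByExpr (minimum 10 counts), scaled by TMM and tested with edgeR 4.0.16 (glmQLFit and glmQLFTest, robust) in R 4.3.3, with 4 residual degrees of freedom and a threshold of 0.05. The script was tested on simulated data. Shares and ratios were compared by exact permutation over libraries (scipy 1.17.1). Exon lengths, overlaps and promoters came from TAIR10.1 and coding identity from BLAST 2.17.0. Alternatives used other scalings, no filter, DESeq2 1.42.0, limma 3.58.1 (voom), a replicate block and left-out libraries. Libraries of a group differed beyond counting noise (chi-square over its degrees of freedom, 9.28 to 49.8), and p-values measure the spread between these libraries. The members and lists were chosen with earlier results of these data known. All 10 genes are named, with members of the related lists as examples and with the 3 nearest profiles of each risen gene.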

Additional observations from a re-analysis of the deposited data

How the results depend on the processing

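The calls of the 9 risen genes held under all 14 alternatives, and all-gene calls stayed between 4386 and 6108 risen and 4274 and 7883 fallen (5631 and 5616 in the main fit). With upper-quartile scaling, 1 member, HOP1, was called lower, and 35.7% of all calls were rises against 50.1%. Leaving out single libraries put the log2 fold change of HOP1 between -0.090 and 0.015, the sign turning without high CO2 replicate 2, with the call unchanged; the cause was not tested. With DESeq2 and voom 9 members were called, all higher. Without replicate 3 of both groups, a choice made after seeing the data, 9 members rose and 0 fell. Differences in family share kept their direction under 9 alternatives each: HOP3 71.3 to 78.1, ROF2 38.7 to 43.8, ATJ3 -16.4 to -15.2 and MBF1C 54.1 to 62.9 percentage points. Same-numbered libraries did not all deviate together (r = 0.26, -0.03 and 0.44 over 18504 genes), and not every library correlated best with its own number. With the replicate block 9 members rose and 0 fell, and 5880 genes rose and 6071 fell in all. Pair-wise sign changes gave p = 0.25 for each share, the smallest that 3 pairs allow in an exact test. At 9 counts in high CO2, depth limits the fold of AT1G71000. Results cover these pooled leaves only.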

Other observations

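Of the heat shock factor list, HSFB1 (AT4G36990) is listed at 0 in all 6 libraries and HSFA7B at 1, 2 and 0 counts in high light and 0, 0 and 0 in high CO2, while HSFA7A, the closest relative of HSFA7B, had 277, 361 and 381 counts in high light and 21, 23 and 29 in high CO2. No annotated exon of HSFB1 or HSFA7B overlaps another gene (0% on either strand in TAIR10.1). In the J-domain list, AT1G59725 and AT5G25530 had at most 2 counts in any library and could not be tested.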
